A study of Mus musculus with 6 samples.

Results

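Il23r, Il17a, Zbtb16, Il1r1, Ramp3 and Trdc, 6 of the 32285 genes in the files, were followed through the cells of the bleomycin-injured mouse lung. They were chosen by name for where their transcripts had been seen in these libraries, so their levels across cell types, and their presence together in the same cells, are given as a description without a test. Only the comparison of antibody treatments was tested.

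The libraries were single-cell RNA-Seq of right lung from 6 male hCTLA4 mice, C57BL/6 animals in which human exons replaced part of the mouse Ctla4 gene so that a human antibody can bind, with 1 library per mouse. All 6 were 12 weeks old at the start and had received bleomycin (1.25 U/kg, 2 oropharyngeal doses), an agent that injures the alveoli and causes fibrosis. From day 21 after the second dose, 3 mice received an IgG1 isotype control antibody and 3 received ipilimumab, an antibody against CTLA4. Each was given at 5 mg/kg for 4.5 weeks. No uninjured mouse was part of the libraries, so bleomycin is common to both groups, and the knock-in is carried by every animal.

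Type 17 T cells are lymphocytes that secrete IL-17 cytokines and act mainly at barrier tissues such as lung, gut and skin. IL-23, made by myeloid cells, binds a receptor of which the Il23r product is the specific chain and maintains these cells, and IL-1β acts through the Il1r1 product to raise their cytokine output. Many type 17 cells in tissue are innate-like: γδ T cells, whose receptor delta chain constant region is encoded by Trdc, and invariant αβ T cells such as NKT and MAIT cells, which depend on the transcription factor PLZF encoded by Zbtb16. These cells take up residence early in life and respond to cytokines without prior priming. RAMP3 is a single-pass membrane protein that pairs with the calcitonin receptor family and sets which peptides (adrenomedullin, CGRP) the receptor prefers.

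In GRCm38 the 6 genes lie on 5 chromosomes. Il17a (ENSMUSG00000025929) spans chr1:20730905-20734496 on the forward strand with 3 exons, and Il1r1 (ENSMUSG00000026072) lies on the same chromosome at chr1:40225080-40317257, forward strand. Il23r (ENSMUSG00000049093) spans chr6:67422932-67491855 on the reverse strand, Zbtb16 (ENSMUSG00000066687) chr9:48654297-48836222 on the reverse strand, and Ramp3 (ENSMUSG00000041046) chr11:6658521-6677475 on the forward strand. Trdc (ENSMUSG00000104876), annotated as a T cell receptor constant gene, spans chr14:54142851-54148868 on the forward strand and overlaps the opposite-strand genes Gm43434 and Trdv5.

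After filtering, 24272 cells were used, 4348, 4228 and 3268 in the IgG1 mice and 4362, 4002 and 4064 in the ipilimumab mice, from 37666042 to 48612412 unique molecular identifiers (UMIs, each counting 1 captured transcript molecule) per library. Ipilimumab replicate 1 stood apart: 78.9% of its UMIs lay in called cells against 92.4 to 93.1% in the other 5 libraries, and it held 130 of the 152 cells of the alveolar type 2 gate. Any pair of libraries shared 0 to 8 cell barcodes. Cells were put into gates by UMIs of fixed marker genes, none of them among the 6 genes. T cells, defined by at least 2 UMIs over Cd3e, Cd3d and Cd3g, numbered 5049 and were divided by Cd4 and Cd8 (Cd8a, Cd8b1) transcripts into 1626 cells with Cd4, 2010 with Cd8, 107 with both and 1306 with neither. The last gate is a gate on absent transcripts: with every T cell thinned to 2000 UMIs it held 59.3% of T cells in the IgG1 mice in place of 24.8%, so it holds CD4 and CD8 cells whose coreceptor transcript was missed beside cells that lack it.

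T cells held 91.4% of the Il23r, 93.7% of the Il17a, 85.7% of the Ramp3 and 80.6% of the Trdc UMIs of all cells, and NK cells held 17.04% of the Trdc UMIs. For Zbtb16 and Il1r1 the T cell share was 58.1% and 34.4%, most of the rest lying in stromal, endothelial and myeloid cells. NK cells held 5.34% of the Zbtb16 but 0.03% of the Il1r1 UMIs. B cells held 4.59% and ciliated cells 2.59% of the Il1r1 UMIs. Over all cells used, 1760 UMIs of Il23r were counted in 255 cells, 1355 of Il17a in 129 cells, 9944 of Zbtb16 in 1942, 3205 of Il1r1 in 1123, 10065 of Ramp3 in 3260 and 2342 of Trdc in 598. In B cells, taken as a comparison, the share of cells with a UMI was 0.05% for Il23r, 0.06% for Il17a, 0.07% for Trdc, 0.21% for Zbtb16, 0.53% for Ramp3 and 1.30% for Il1r1. In T cells with neither coreceptor the same shares were 12.7%, 6.28%, 13.3%, 20.8%, 58.7% and 12.2%. Median depths were 5618 and 5637 UMIs per B cell in the IgG1 and ipilimumab mice against 7821 and 7384 per T cell with neither coreceptor. The shares in that T cell gate stood far above the B cell shares for all 6 genes.

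Il23r, the cytokine receptor chain, was highest in T cells with neither Cd4 nor Cd8 transcripts. Levels are given as CPM, the UMIs of a gene per 1000000 UMIs of the gate in 1 mouse, with mice always in the order of replicates 1, 2 and 3. In this gate Il23r stood at 39.2, 208 and 32.3 CPM with IgG1 and at 222, 142 and 174 CPM with ipilimumab. IgG1 replicate 2 lay among the ipilimumab mice and the other IgG1 mice below all of them, so the groups overlapped. The mean over the 6 mice was 136 ± 82.7 CPM (SD, n = 6), and no mouse fell into the range of the next gate, T cells with Cd4, whose mean was 7.86 CPM. T cells with Cd8 held 0 to 11.9 CPM, and 0 of 1494 NK cells carried an Il23r UMI, which allows a share of cells with a UMI of up to 0.201% (3 counts of 1494, counting error only).

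Il17a, the cytokine itself, was found in few cells and varied most between mice. T cells with neither coreceptor held 32.0, 107 and 1.79 CPM in the IgG1 mice and 27.9, 79.2 and 137 CPM in the ipilimumab mice. T cells with Cd4 held 1.8, 188 and 0 CPM in the IgG1 mice and 17.4, 10.1 and 17.2 CPM in the ipilimumab mice. The means over 6 mice, 64.2 ± 52.2 and 39.1 ± 73.5 CPM (SD), overlapped, and the second rested on 1 mouse. In that mouse, IgG1 replicate 2, a single cell held 343 of the 589 Il17a UMIs of all T cells (58.2%). This cell also carried 11 UMIs of Il23r, 7 of Il1r1, 25 of Il17f, which encodes the sister cytokine IL-17F, 8 of Cd4 and 35 of Trac, the αβ receptor constant region. Without it the Cd4 gate of this mouse held 33.9 CPM of Il17a.

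Il1r1, the signalling receptor for IL-1, was shared between type 17 cells and stroma. Fibroblasts were highest at 190 ± 40.1 CPM (SD, n = 6), with 47.4% of the cells carrying a UMI, followed by T cells with neither coreceptor at 91.4 ± 47.0 CPM, blood endothelium at 48.5 CPM and classical monocytes at 46.5 CPM. In T cells with neither coreceptor the values were 41.5, 116 and 43.0 CPM in the IgG1 mice and 163, 77.1 and 108 CPM in the ipilimumab mice. Again IgG1 replicate 2 lay among the ipilimumab mice and the other IgG1 mice below them. T cells with Cd8 held at most 6.1 CPM, and 1 UMI was found over all NK cells.

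Zbtb16, the gene of the innate-like T cell factor PLZF, had the widest distribution. T cells with neither coreceptor averaged 484 ± 203 CPM, blood endothelium 273 ± 233, nonclassical monocytes 164 ± 35.4 and fibroblasts 130 ± 48.9 CPM (SD, n = 6), and neighbours in this order overlapped. NK cells followed at 53.0 ± 7.91 CPM, below every mouse's fibroblast value. The T cell values were 247, 478 and 370 CPM in the IgG1 mice and 846, 433 and 529 CPM in the ipilimumab mice, with ipilimumab replicate 1 highest and the groups overlapping. A UMI was present in 20.8% of these T cells, in 17.3% of NK cells and in 59.9% of nonclassical monocytes. In the Cd8 gate, 1 cell of IgG1 replicate 2 with 80759 UMIs in all held 167 UMIs of Zbtb16 and 22 of Cd8a, and without it the gate of this mouse dropped from 64.9 to 10.2 CPM.

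Ramp3, the receptor partner, was found broadly in T cells but not only there. Its level was 294 ± 122 CPM in T cells with neither coreceptor, 219 ± 68.0 CPM with Cd4 and 91.1 CPM with Cd8 (SD, n = 6), with overlap between neighbours in the order, and NK cells held 0 to 3.7 CPM. Dendritic cells held 19.9 to 136 CPM, overlapping with the Cd8 gate. A Ramp3 UMI was present in 45.5% of dendritic cells and in 39.5% of T cells with Cd8. In T cells with neither coreceptor the mice held 174, 353 and 160 CPM (IgG1) and 294, 293 and 492 CPM (ipilimumab). Trdc, in contrast, separated the gates: 112, 173 and 105 CPM in the IgG1 mice and 163, 206 and 165 CPM in the ipilimumab mice in T cells with neither coreceptor, 40.5 ± 4.95 CPM in NK cells (SD, n = 6) and 3.48 CPM in T cells with Cd4. The ranges of the first 2 of these gates did not overlap. A Trdc UMI was present in 19.95% of NK cells, so Trdc alone does not mark γδ T cells in these libraries. Reads of Trdc and of the overlapping Gm43434 were told apart only by strand.

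**Figure D1:**
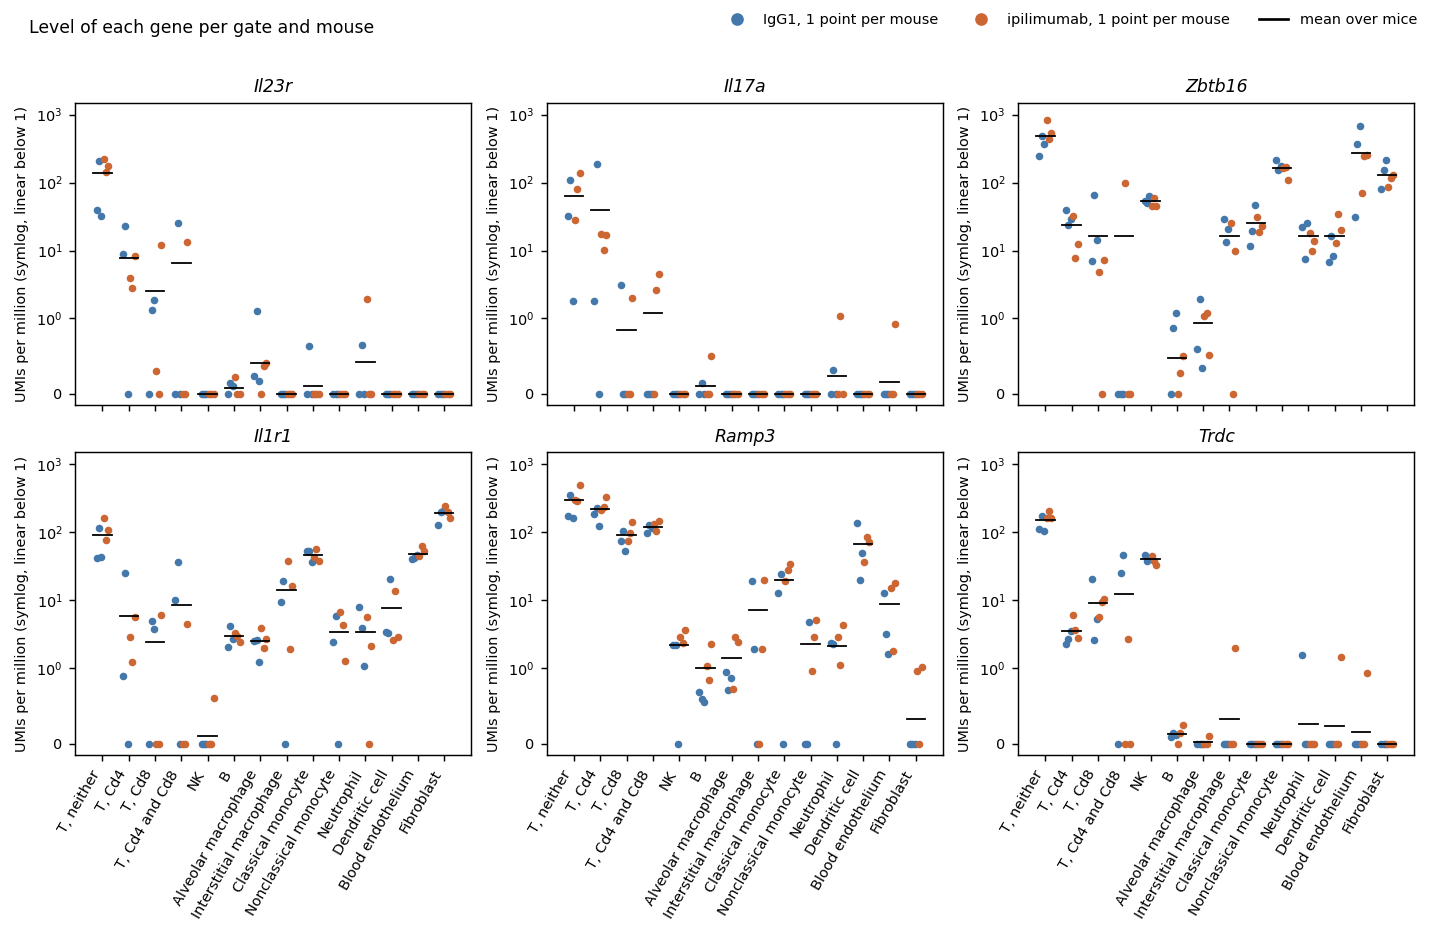
Level of each of the 6 genes (vertical axis, CPM, symmetric log scale) in each gate (horizontal axis), with 1 point per mouse coloured by treatment. T cells with neither Cd4 nor Cd8 were the highest gate for every gene except Il1r1, which was highest in fibroblasts at 190 CPM.

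Within T cells all of the 6 genes except Ramp3 were found in few cells. Il23r UMIs came from 202 T cells (median 5 UMIs per positive cell, highest 72), Il17a from 110 (median 4.5), Il1r1 from 200, Trdc from 268 (median 5) and Zbtb16 from 333 (median 12), whereas Ramp3 was found in 2684 T cells with a median of 2. The 10 cells with most Il17a held 56.4% of its UMIs in T cells.

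The receptor genes and the transcription factor were found in the same cells. Of the 202 T cells with Il23r, 158 carried Il1r1 (78.2%, 61.1 to 100% over the 6 mice), against 0.867% of T cells without Il23r. Zbtb16 was present in 161 of them (79.7% against 3.55%), and Ramp3 in 184 (91.1% against 51.6%). Il17a was detected in 81 (40.1% against 0.598%), in 7 of 18, 23 of 51 and 2 of 10 cells of the IgG1 mice and in 10 of 37, 13 of 34 and 26 of 52 cells of the ipilimumab mice. Trdc was present in 57 (28.2% against 4.35%). Median depth was 9262 UMIs in T cells with Il23r and 8512 in those without, and its part in these shares was not tested.

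Other genes of the type 17 program lay in these cells as well. Ccr6, a chemokine receptor of type 17 cells, was detected in 31.7% of T cells with Il23r and 1.11% of those without, and Blk, a Src family kinase of γδ type 17 cells, in 55.4% and 0.846%. Maf, a transcription factor of the program, was found in 82.2% and 22.1%, the tissue-homing receptor gene Cxcr6 in 84.7% and 12.7%, and the channel gene Tmem176b in 87.1% and 3.26%. Ramp1, the family member that forms the CGRP receptor, was present in 82.2% and 22.7%, and Calcrl, the receptor both RAMPs pair with, in 11.4% and 27.4%. Tbx21, the type 1 regulator, was found in 11.9% and 21.7%.

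**Figure D2:**
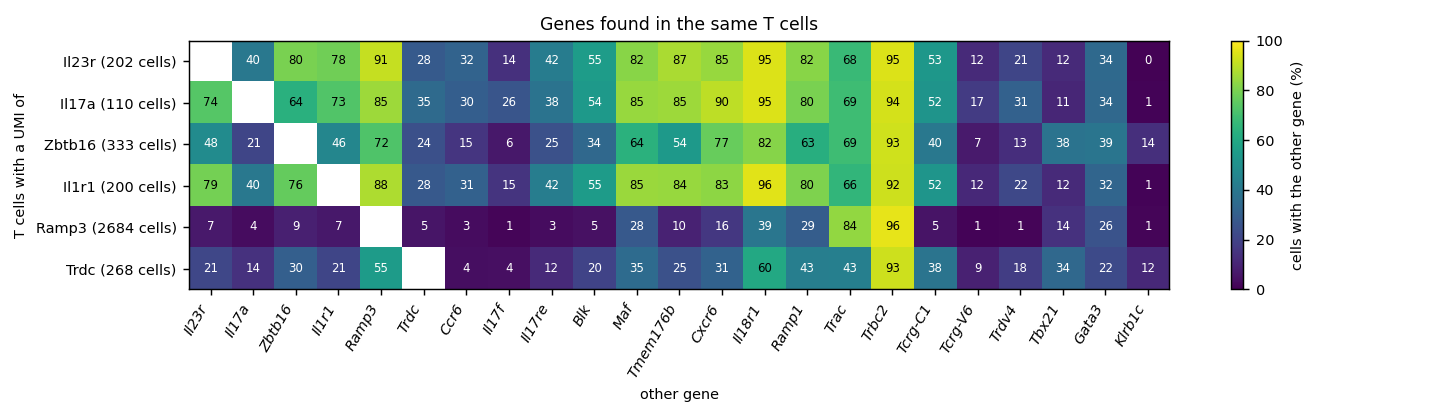
Percent of T cells with a UMI of the row gene (vertical axis) that also carry a UMI of the column gene (horizontal axis), pooled over the 6 mice. Il1r1 and Zbtb16 were present in 78.2% and 79.7% of the 202 T cells with Il23r.

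T cells with Il23r were divided by their receptor chain transcripts. A Trdc UMI alone does not mark a γδ T cell here, and a Trdc transcript can be missed. The groups are therefore named by transcript and not by lineage. Trdc was present in 57 of the T cells with Il23r, 5, 11 and 2 in the IgG1 mice and 9, 17 and 13 in the ipilimumab mice. Trac without Trdc was present in 122, 10, 34 and 6 in the IgG1 mice and 23, 16 and 33 in the ipilimumab mice, and 23 had neither. Summed over mice, the cells with Trdc held more Il17a (942 against 405 CPM), Il1r1 (753 against 310 CPM) and Blk (619 against 112 CPM) than those with Trac. Without the single cell with 343 Il17a UMIs, which is among those with Trac, their Il17a level was 191 CPM and their Il1r1 level 312 CPM. Cd163l1, a scavenger receptor gene of γδ type 17 cells, stood at 1529 against 8.9 CPM, and the variable segment Trdv4 at 340 against 0 CPM. Zbtb16 (1242 and 1634 CPM) and Ramp3 (653 and 625 CPM) were present at like levels in both. By coreceptor, 166 of the 202 cells lay in the gate with neither, 28 in the Cd4 gate and 6 in the Cd8 gate. Of the 28 with Cd4, 3.6% carried Zbtb16, 35.7% Il1r1 and 82.1% Cd5, a receptor of conventional T cells.

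Cells with Zbtb16 or Trdc but no Il23r had another content. The 172 T cells with Zbtb16 and no Il23r carried Tbx21 in 62.8%, Ifng in 34.9%, Klrb1c (NK1.1) in 25.6%, Gzma in 21.5% and Il4 in 15.1%, with Il17a in 2.9% and Il1r1 in 5.8%. The 211 with Trdc and no Il23r carried Tbx21 in 38.4%, Il17a in 0.9%, Il1r1 in 1.4%, Ccr6 in 0.9% and Trac in 47.9%. T cells with Il23r or Zbtb16 together numbered 374, 45, 76 and 40 in the IgG1 mice and 77, 57 and 79 in the ipilimumab mice. The 4492 T cells with none of Il23r, Zbtb16 and Trdc carried Il17a in 0.51% but Ramp3 in 51.9%.

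Across 72 sums of 1 gate in 1 mouse (14 gates, 17749 genes), the genes whose log2(CPM + 10) ran most like that of Il23r included Tcrg-C1 (Pearson's r = 0.955), a γ chain constant gene, and Il17re (0.951), a receptor chain for IL-17C. Il1r1 ran with Tmem176a (0.866), Tmem176b (0.853) and Zfp462 (0.844), Ramp3 with St8sia1 (0.937), Cd3g (0.928) and Traj18 (0.919), and Trdc with Gm43434 (0.937), Ret (0.906) and Trdj1 (0.864). Zbtb16 had no close partner, its highest values being Prkd3 (0.682), Adam12 (0.659) and Pde5a (0.656). For Il17a the values were 0.883 for Olfr60, 0.851 for Il23r and 0.850 for B4galnt4. The points share mice and libraries and each gate gives up to 6 of them, so the values are descriptive, and Cd3g is a marker that the gates used.

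The comparison of ipilimumab with IgG1 asks whether blocking CTLA4 in injured lungs alters these transcripts. None of the 6 genes was called in any T cell gate by edgeR's quasi-likelihood test on UMIs summed per mouse (Benjamini-Hochberg adjusted p under 0.05), and neither was any other gene: 0 of 11974 genes in all T cells, 9658 with Cd4, 10063 with Cd8 and 8933 with neither, a background of 0% each. At an unadjusted p under 0.05 the counts were 829, 607, 435 and 821, and DESeq2 called 25, 30, 0 and 19, none of the 6 genes among them.

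In T cells with neither coreceptor all 6 differences were positive (ipilimumab over IgG1), and none passed the test. A level summed over a gate does not tell more positive cells from more RNA per cell. The edgeR log2 fold changes were 0.93 (SE 0.53, adjusted p = 0.628) for Il23r, 0.71 (SE 0.25, adjusted p = 0.466) for Zbtb16, 0.77 (SE 0.37, adjusted p = 0.574) for Il1r1, 0.65 (SE 0.30, adjusted p = 0.546) for Ramp3, 0.45 (SE 0.20, adjusted p = 0.533) for Trdc and 0.82 (SE 0.76, adjusted p = 0.783) for Il17a. In all T cells the log2 fold changes were 0.82 for Il23r, 0.50 for Zbtb16, 0.53 for Il1r1, 0.61 for Ramp3, 0.42 for Trdc and -0.30 for Il17a, with edgeR adjusted p-values from 0.713 to 0.971. With Cd4, Il17a differed by -2.06 (SE 1.15, edgeR adjusted p = 0.833), Il23r by -1.02 (edgeR adjusted p = 0.904), Zbtb16 by -0.78 (SE 0.38, edgeR adjusted p = 0.809) and Ramp3 by 0.53 (edgeR adjusted p = 0.724). With Cd8, Zbtb16 differed by -2.77 (SE 0.80, edgeR adjusted p = 0.991), the value furthest from 0 of the 33 pairs of gene and gate tested, Il1r1 by -0.49, Ramp3 by 0.49 and Trdc by -0.11. Zbtb16 thus had a negative value in both coreceptor gates and a positive one in the gate with neither. Without the single high Il17a cell and the single high Zbtb16 cell, an alternative chosen after seeing the data, Il17a differed by 0.36 with Cd4 and by 0.77 in all T cells, and Zbtb16 with Cd8 by -1.41.

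These values turned on 1 library. IgG1 replicate 2 was the highest IgG1 mouse for all 6 genes in T cells with neither coreceptor, so leaving it out raises their differences. Without it, edgeR called 106 of 9278 genes in that gate. Il23r was among them at a log2 fold change of 2.34 (edgeR adjusted p = 0.000494), with Il1r1 at 1.46 (edgeR adjusted p = 0.0237). Ramp3 was called at 1.14 (edgeR adjusted p = 0.0319) and Trdc at 0.75 (edgeR adjusted p = 0.0422). In all T cells without this mouse edgeR called 16 of 12244 genes. Il23r was among these at 2.24 (edgeR adjusted p = 0.0165), and Il17a stood at 2.46 (edgeR adjusted p = 0.223). Leaving out any other mouse called none of the 6 genes in any gate tested. Replicate 2 was the highest IgG1 mouse for 15 of the 19 type 17 list genes measured in T cells with neither coreceptor (78.9%, against 29.9% of 9406 genes) and for 18 of 20 in all T cells (90%, against 37.2% of 12294 genes). Several of these list genes were found in the same cells, so they are not separate observations. Nothing in the labels sets IgG1 replicate 2 apart from the other IgG1 mice, but its cell content differed. It held 731 neutrophils, against 303 and 194 in IgG1 replicates 1 and 3 and 194 to 255 in the ipilimumab mice. Alveolar macrophages numbered 672, against 389 and 234 in those IgG1 mice and 261 to 574 in the ipilimumab mice. The part of this in the values above was not tested.

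**Figure D3:**
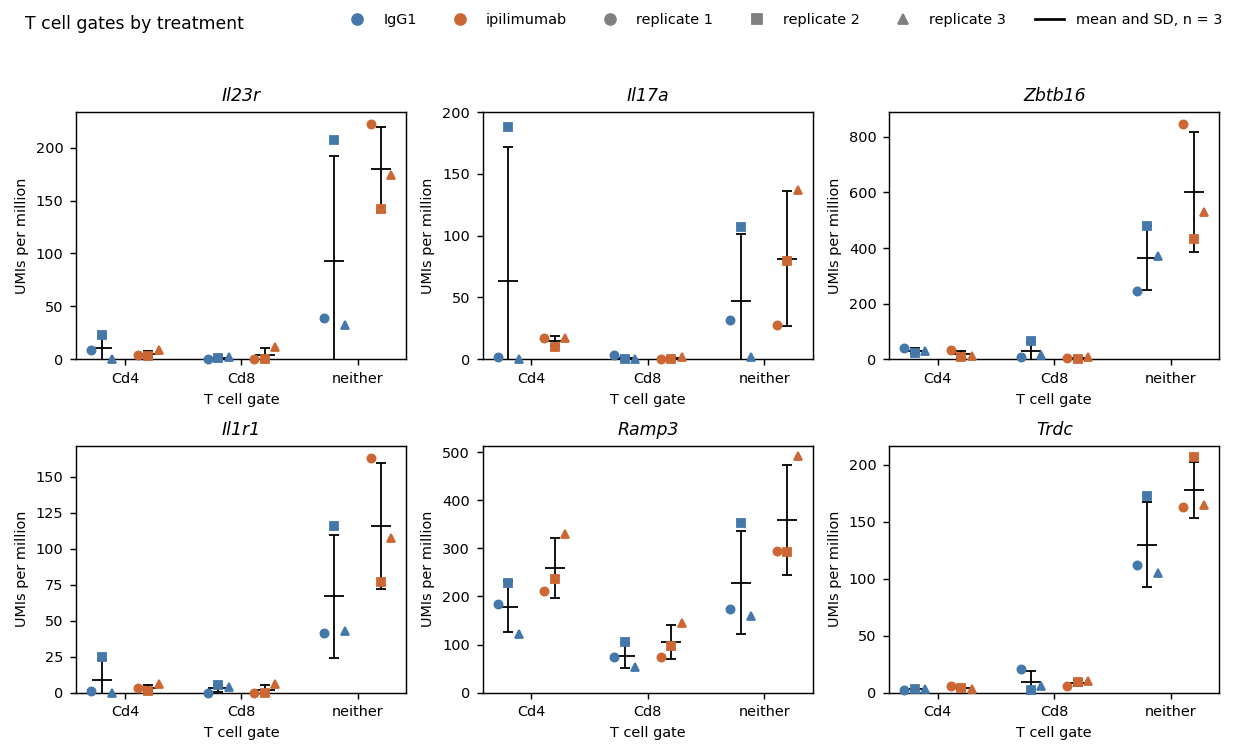
Level of each gene (vertical axis, CPM) in T cells with Cd4, with Cd8 and with neither (horizontal axis), with 1 point per mouse, dashes for the group mean and whiskers for the SD (cut at 0, n = 3 mice per group). In the gate with neither, IgG1 replicate 2 lay among the ipilimumab mice for Il23r at 208 CPM, and the other IgG1 mice lay below at 39.2 and 32.3 CPM.

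**Figure D4:**
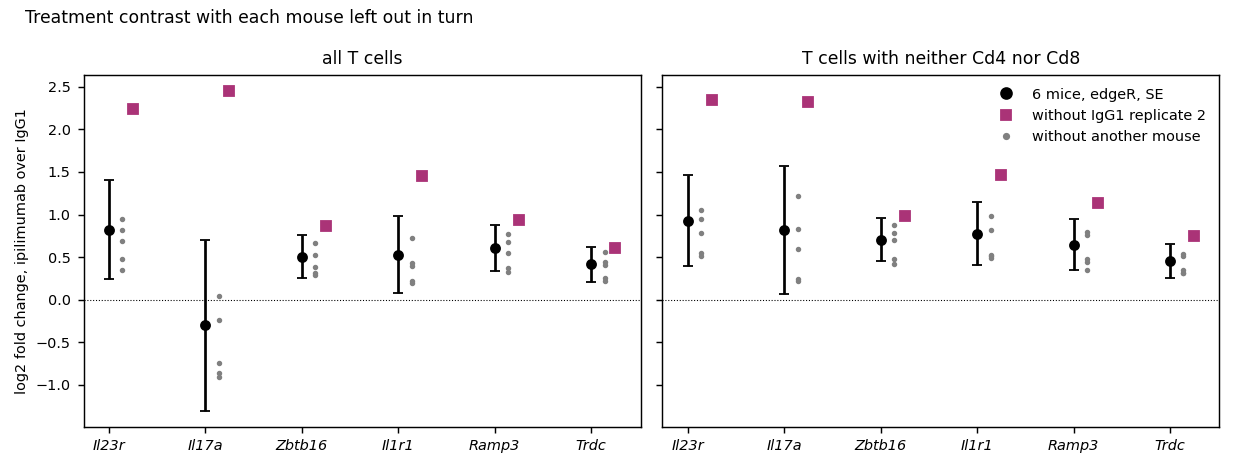
edgeR log2 fold change of ipilimumab over IgG1 (vertical axis) for each gene (horizontal axis) in all T cells and in T cells with neither coreceptor, over all 6 mice with its standard error (black) and with each mouse left out in turn (small points). Squares mark the fits without IgG1 replicate 2, where Il23r stood at 2.24 and 2.34 in place of 0.82 and 0.93.

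Transcripts of other cell types were measured in the same sums. Several of the 8 ILC2 markers are also expressed by T cells, and Rora and Il7r are in the type 17 list as well. In T cells with neither coreceptor the ILC2 markers summed to 978 to 1444 CPM (IgG1) and 1485 to 1767 CPM (ipilimumab). The 7 NK markers held 141 to 209 and 210 to 580 CPM, and the 4 airway secretory markers 3.59 to 11.3 and 25.4 to 87.0 CPM. In these 3 lists the groups did not overlap. The alveolar type 2, fibroblast and ciliated markers were also higher in every ipilimumab mouse than in any IgG1 mouse, at most 12.7 CPM. Blood endothelium markers went the other way, 222 to 311 CPM (IgG1) and 204 to 215 CPM (ipilimumab). For the other marker lists the groups overlapped. Among 9406 single genes measured in T cells with neither coreceptor, 7.43% had every ipilimumab mouse above every IgG1 mouse. In NK cells Il23r and Il17a had 0 UMIs. The part of these marker transcripts in the differences above was not tested.

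Outside T cells, 13 pairs of gene and gate were tested. In NK cells Zbtb16 differed by -0.13 and Trdc by -0.12 on the log2 scale, in nonclassical monocytes Zbtb16 by -0.30, in blood endothelium Zbtb16 by -0.89 and Il1r1 by 0.33, in classical monocytes Ramp3 by 1.07 (SE 0.66), Il1r1 by -0.08 and Zbtb16 by -0.08, in neutrophils Zbtb16 by -0.30, in alveolar macrophages Il1r1 by 0.32, in B cells Il1r1 by 0.0046, and in fibroblasts Il1r1 by 0.17 and Zbtb16 by -0.45. None of the 13 was called by edgeR, in gates where 0% of genes (NK cells, B cells, alveolar macrophages, neutrophils, nonclassical monocytes, endothelium), 0.0133% (1 gene, fibroblasts) and 0.066% (5 genes, classical monocytes) were. In the gates at 0%, 351 to 813 genes had an unadjusted p under 0.05, and DESeq2 called 0 to 47 genes.

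The lists around the 6 genes were read by their counts and medians. Of the 21 genes of the type 17 program list, 19 were tested in T cells with neither coreceptor, none was called, and their median log2 fold change was 0.66, beside 0.001 over all genes tested there. All 19 were positive, and 9 had an unadjusted p under 0.05, as had 821 of the 8933 genes. Several of these genes were found in the same T cells with Il23r, so their directions are not separate observations. With Cd4, 10 of the 13 list genes tested were positive (median 0.36), and with Cd8 3 of 13 were (median -0.17), with none called in either. In the gate with neither, the highest were Cd163l1 at 1.77 (edgeR adjusted p = 0.419) and Blk at 1.41, and Cxcr6 stood at 0.77 (edgeR adjusted p = 0.390). Medians of the other lists in that gate were 0.03 for the T cell receptor genes, 0.02 for the innate-like program and 0.26 for IL-23 and IL-1 ligands and receptors. They were -0.12 for IL-17 receptors and targets and 0.65 for the RAMP and calcitonin family, where 3 genes were tested and 2 were positive. No gene of these lists was called. In 6 of the 19 type 17 genes every ipilimumab mouse lay above every IgG1 mouse, against 7.43% of all 9406 genes.

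Whether the treatment difference itself differed between T cells with neither coreceptor and T cells with Cd4 was tested by an edgeR interaction term with mouse as a block. The difference of log2 fold changes was 1.61 for Zbtb16 (adjusted p = 0.471), 1.97 for Il23r (adjusted p = 0.592), 2.22 for Il17a, 1.91 for Il1r1, 0.15 for Ramp3 and -0.07 for Trdc. Without the 2 cells the value of Il17a was 0.17. The test called 0 of 10026 genes (0%), of which 538 had an unadjusted p under 0.05. Without IgG1 replicate 2 the value of Zbtb16 was 1.98 (edgeR adjusted p = 0.00676) and those of Il17a and Il1r1 turned to -1.80 and -1.33.

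The shares of T cells carrying each transcript were compared over mice, where 3 against 3 cannot give an exact p below 0.1, so no difference could be called. A UMI of Il23r was found in 2.16, 7.04 and 1.17% of T cells in the IgG1 mice and 4.58, 3.81 and 5.53% in the ipilimumab mice (means 3.46 ± 3.14 and 4.64 ± 0.859%, SD, n = 3 each, exact two-sided permutation p = 0.5). The groups overlapped. Zbtb16 was found in 5.81 and 7.47% (exact p = 0.3), Il1r1 in 3.36 and 4.64% (exact p = 0.6), Il17a in 1.73 and 2.62% (exact p = 0.5) and Ramp3 in 48.6 and 57.4% (exact p = 0.3). Trdc was found in 5.76 ± 0.239% and 4.85 ± 0.870% (SD, n = 3 each, exact p = 0.1), every IgG1 mouse above every ipilimumab mouse, while after thinning to 2000 UMIs the means were 3.22 and 3.40% and the groups overlapped. As a share of all cells, T cells with Il23r made up 0.642% and 0.992% (exact p = 0.3).

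**Figure D5:**
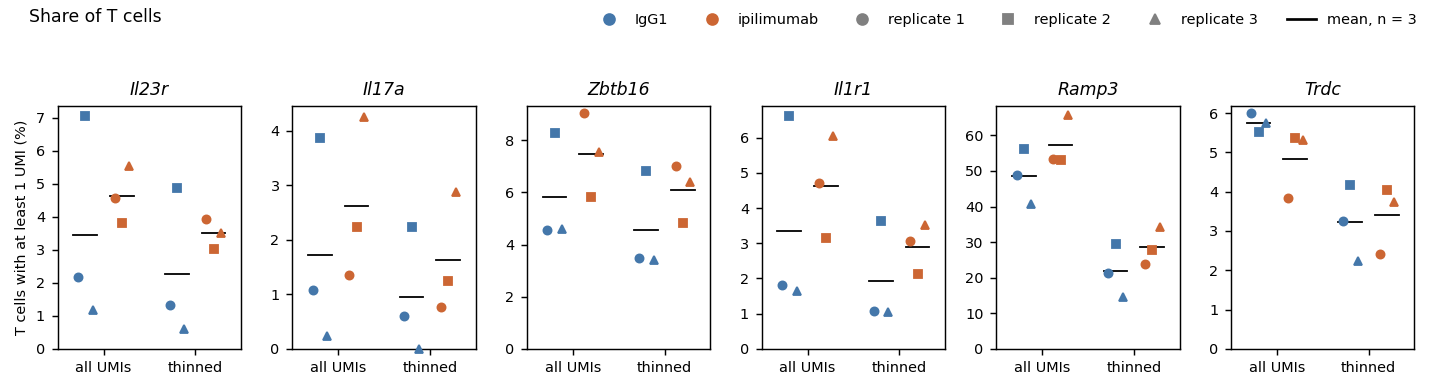
Percent of T cells with at least 1 UMI of each gene (vertical axis) in each mouse, with all UMIs and with every T cell thinned to 2000 UMIs, points for mice and lines for group means (n = 3). For Trdc the IgG1 mice lay above the ipilimumab mice with all UMIs (means 5.76 and 4.85%) and overlapped with them after thinning.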

How the data were processed

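The authors made 10x Chromium Single Cell 3' v3.1 libraries and deposited unfiltered UMI counts per gene and barcode for each mouse, aligned to mm10 with Cell Ranger (7.0.0 in the submitters' processing notes). From these counts, cells were called by UMI number or by a profile unlike ambient barcodes, filtered (at least 200 genes, at most 10% mitochondrial UMIs) and cleared of predicted doublets. Gates required at least 3 distinct markers (2 for lists of 4), or 2 UMIs over the CD3 genes for T cells. UMIs were summed per mouse and gate (at least 10 cells), expressed as CPM and tested with edgeR 4.0.16 (R 4.3.3, quasi-likelihood, TMM, filterByExpr, Benjamini-Hochberg over all genes of a gate). DESeq2 1.42.0, no filter, a replicate block and leaving out each mouse were alternatives. Shares were compared by exact permutation over mice. On simulated counts for all T cells, 77 of 97 tested genes changed 2-fold and 98 of 98 changed 4-fold were recovered, with 6 false calls. The simulation used the trend of spread over mice across all genes, not the spread of the 6 genes. It therefore gives no recovery rate for them. The text names the 6 genes, the 3 genes running most like each, and genes of fixed lists, of which 1 is not reported here. Genes named for the content of cells with Il23r, Zbtb16 or Trdc but outside those lists (Cd5, Ifng, Il4, Gzma), and the 2 single cells, were chosen after their values were seen. The members and lists were chosen with earlier results of these data known. In replicates of 1 group, T cell sums differed beyond sampling noise (chi-square per degree of freedom 5.36 to 11.8).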

Additional observations from a re-analysis of the deposited data

How the results depend on the processing

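No difference of the 6 genes between treatments passed the test with all mice, and 453 of 494 values from alternatives for the 33 tested pairs of gene and gate kept both direction and call. Leaving out mice gave log2 fold changes in T cells with neither coreceptor of 0.51 to 2.34 (Il23r), 0.22 to 2.32 (Il17a), 0.42 to 0.98 (Zbtb16), 0.49 to 1.46 (Il1r1), 0.35 to 1.14 (Ramp3) and 0.31 to 0.75 (Trdc). In all T cells they were 0.35 to 2.24 (Il23r) and -0.91 to 2.46 (Il17a). With Cd4 they were -1.64 to 0.25 (Il23r) and -2.67 to 4.08 (Il17a), with Cd8 -6.40 to 0.091 (Il1r1) and -0.51 to 1.04 (Trdc). Elsewhere they were -0.0078 to 0.30 (Il1r1, fibroblasts), -0.25 to 0.031 (Il1r1) and -0.40 to 0.59 (Zbtb16, classical monocytes), -1.47 to 0.17 (Zbtb16, endothelium) and -0.23 to 0.30 (Il1r1, B cells, also -0.017 by DESeq2 and -0.068 with doublets kept). The interaction ranged from 1.15 to 2.03 (Zbtb16), -1.80 to 3.04 (Il17a), -1.33 to 2.59 (Il1r1), -0.058 to 0.35 (Ramp3) and -0.43 to 0.37 (Trdc), and the share of T cells with neither coreceptor differed by -0.52 to 4.05 percentage points. Counts of genes called ran from 0 to 16 (all T cells), 18 (Cd4, without IgG1 replicate 3), 1 (Cd8), 106 (neither), 1 (NK) and 17 (interaction). DESeq2 called 25 genes in all T cells, 30 with Cd4 and 19 with neither.

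With no low-count filter edgeR called 171 (all T), 247 (Cd4), 74 (Cd8), 336 (neither) and 53 (NK) genes. Of the 33 pairs of gene and gate, 12 were then called. Among them, in T cells with neither coreceptor, were Il23r (0.93), Il17a (0.82), Zbtb16 (0.71), Il1r1 (0.77) and Ramp3 (0.65). With Cd4 they included Il17a (-2.05), Zbtb16 (-0.77) and Ramp3 (0.55), with Cd8 Zbtb16 (-2.78) and Ramp3 (0.48), and in all T cells Ramp3 (0.60). The log2 values hardly moved, whereas the SE dropped (Il17a with Cd4 from 1.15 to 0.19), and the cause was not tested. Same-numbered mice did not deviate together in all T cells (r = -0.007, -0.081 and -0.216). With 3 mice per group these values cannot decide whether same-numbered libraries were processed together. With the replicate block 1 (all T), 7 (Cd4), 1 (Cd8), 1 (neither) and 3 (NK) genes were called, none of the 6 genes, and Il17a in all T cells stood at 0.55 and Trdc with Cd8 at 0.13. Without the 2 cells, 1 gene was called in all T cells, and Il17a stood at 0.77 there and 0.36 with Cd4. Trdc shares differed by 0.180 percentage points after thinning. Positive cells were few, 10 to 52 per mouse for Il23r.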

Other observations

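Several ligands and receptors of the lists had their highest level outside T cells. Il1b, Il18, Il1r2, Il17ra, Cxcl1, Calcrl, Ramp1 and Calca also had enough counts in all T cells to be tested there. Il1b was highest in neutrophils at a mean of 6664 CPM, as were Il1a (111 CPM) and the decoy receptor Il1r2 (4720 CPM). Il12b, whose product is a chain of IL-23 and of IL-12, was highest in dendritic cells at 243 CPM, while Il23a, the IL-23-specific chain, reached 7.0 CPM in its highest gate, neutrophils. The IL-17 receptor chain Il17ra was highest in nonclassical monocytes at 233 CPM. The IL-17 target Cxcl1 was highest in fibroblasts (723 CPM), as was Il6 (594.5 CPM). The RAMP partner Calcrl was highest in blood endothelium (3434 CPM), together with Ramp2 (1521 CPM), whereas Ramp1 was highest in alveolar macrophages (217 CPM).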
